A study of Mus musculus with 2 samples.

Results

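The integrin and focal adhesion genes were a list of 40 gene symbols, chosen by name with earlier results of these data known. The list was made up of 15 integrin alpha chains, 6 integrin beta chains and 19 cytoskeletal linkers. All 40 symbols were among the 23284 gene symbols with a value in the RNA-seq files. Leukemic stem cells (LSCs) from mice with a model of chronic myeloid leukemia (CML) were profiled in 1 WT library and 1 STAP-1 KO library. The donor LSK cells (lineage-negative, Sca-1+, c-Kit+) came from WT or STAP-1 KO mice, both Ly5.2 and 8 to 14 weeks old. The KO mice were on a C57BL/6J background and carried a targeted disruption of the gene locus, and the WT mice are described as C57BL/6. In both groups the donor cells were infected with a retrovirus that encodes human BCR-ABL together with GFP and were transplanted into lethally irradiated C57BL/6SJL (Ly5.1) recipients. GFP+ CD45.2+ LSK cells were sorted 11 days after this first BMT (bone marrow transplantation), so that both groups carried the oncogene and differed by the STAP-1 genotype. How many mice were pooled into a library is not given in the sources used here, and a single library per genotype allows neither a replicate check nor a p-value.

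Integrins are receptors for extracellular matrix and for ligands on other cells, and each is a pair of 1 alpha chain and 1 beta chain at the cell surface. The beta chain tail inside the cell binds talin and kindlin, which switch the receptor to a state of high affinity and connect it, through vinculin, filamin and alpha-actinin, to actin filaments. Kinases such as FAK and Pyk2 and adaptors such as paxillin gather at the same site, the focal adhesion. In bone marrow, integrins hold hematopoietic stem cells and progenitors in their niche, and their makeup differs between blood lineages.

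Expression values were FPKM, the fragments mapped to a gene per kilobase of its exons after scaling to library size, which are divided by transcript length, so that levels of different genes in 1 library can be set side by side, with the limit that the ratio of the libraries still varied with transcript length as given further on, and levels and shares of genes of unlike length carry that dependence. The ratio used throughout is log2((STAP-1 KO + 0.1)/(WT + 0.1)), a scale that understates the change of low values. A gene was called lower or higher at a log2 ratio of -1 or less or of 1 or more, that is at 2-fold, when its mean over both libraries was at least 1 FPKM. Judged by the steps between low values, the WT library had an effective depth of 7500000 reads and the STAP-1 KO library one of 10470000, at which 3 reads of a 2000-base transcript are worth 0.223 and 0.160 FPKM. Intervals of a fold are 95% exact (Clopper-Pearson) intervals from the reads estimated with these depths. They cover counting error only, not the difference between mice, sorts or library preparations.

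The targeted gene Stap1 had 62.0 FPKM in WT LSCs and 0.309 FPKM in STAP-1 KO LSCs. Of the sorted antigens, c-Kit (Kit) had 468 and 30.1 FPKM and Sca-1 (Ly6a) had 285 and 106 FPKM. The B-cell markers summed to 3.60 and 17.98 FPKM, nearly all of it from Cd79b at 3.10 and 17.8 FPKM, and Pax5 and Ebf1 were listed at 0 in both libraries. All 12 mast cell and basophil markers were above 0 in both libraries, 11 of them were called lower, and their summed level was 52168 FPKM in WT LSCs and 5395 FPKM in STAP-1 KO LSCs, a 9.67-fold difference. The 9 neutrophil markers found summed to 628 and 4211 FPKM, with 4 lower and 4 higher, and the 10 megakaryocyte and platelet markers to 110 and 121 FPKM. In bulk libraries such as these, fewer cells of a type and less RNA per cell cannot be told apart, and the part of these marker differences in the values below was not tested.

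Most integrin and focal adhesion genes had lower levels in STAP-1 KO LSCs. Of the 40 genes, 31 had a mean of at least 1 FPKM. Of these, 21 were at least 2-fold lower (67.7%), 10 were within 2-fold and 0 were higher. By the same rule 22.2% of all 10974 genes above this minimum were lower and 11.5% were higher. The list was chosen with earlier results of these data known, so this contrast is a description only. The log2 ratio was below 0 for 29 genes and above 0 for 2 genes, Itga6 and Parvg, and the median was -1.61, beside -0.04 for all genes. The summed level of the 40 genes was 2209 FPKM in WT LSCs and 1005 FPKM in STAP-1 KO LSCs. Itga2, Itgax and Fermt2 passed the mean with the STAP-1 KO value below 1 FPKM, so that they were bound to differ. Without the filter, 24 of the 40 genes were lower, beside 22.9% of the 15038 genes above 0 in at least 1 library.

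**Figure D1:**
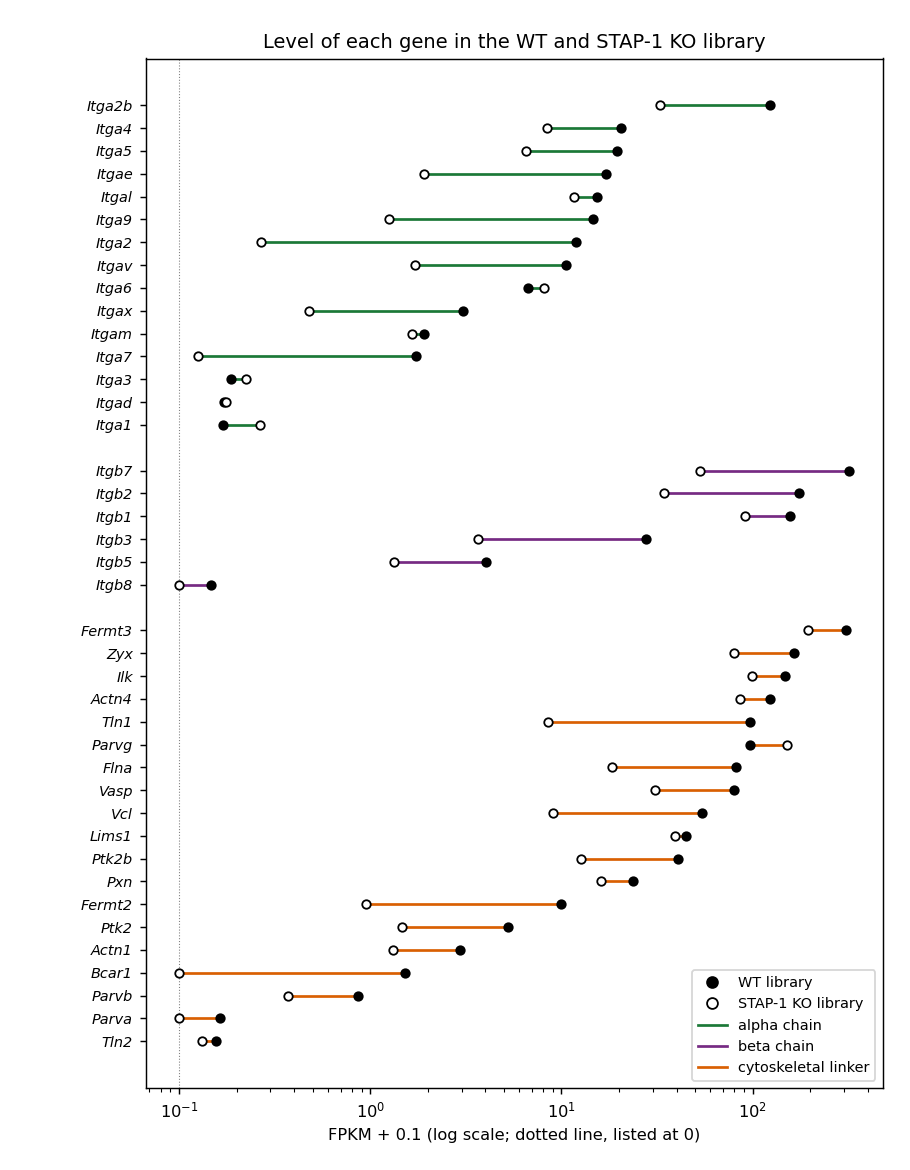
Level of each of the 40 genes in the WT library (filled circles) and the STAP-1 KO library (open circles), as FPKM + 0.1 on a log scale, in the order of the WT level within alpha chains (green), beta chains (purple) and cytoskeletal linkers (orange). The open circle lies to the left of the filled one for nearly all genes above 1 FPKM, and to the right for Parvg and Itga6.

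The alpha chains decide most of the ligand specificity of an integrin. Of the 15 alpha chains, 11 passed the filter, 8 were lower (72.7%, beside 22.2% of all genes) and 3 (Itgal, Itgam and Itga6) were within 2-fold, with a median log2 ratio of -1.92. Their summed level was 245 FPKM in WT LSCs and 73.8 FPKM in STAP-1 KO LSCs, a 3.32-fold difference.

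Itga2b, the platelet fibrinogen receptor chain CD41 that early hematopoietic cells and mast cells also express, was the most abundant alpha chain in both libraries. It lies at chr11:102453297-102470122 on the minus strand (GRCm38) and had 123 FPKM in WT LSCs and 32.5 FPKM in STAP-1 KO LSCs. The fold was 3.79 (3.54 to 4.07). It made up 50.3% of all alpha chain FPKM in WT LSCs and 44.0% in STAP-1 KO LSCs. Of the other platelet genes, Pf4 had 57.9 and 71.2 FPKM, within 2-fold, and Gp1ba, a chain of the von Willebrand factor receptor, had 19.6 and 4.43 FPKM. Of the 9 megakaryocyte and platelet markers above the filter, 2 were lower, 2 were higher and 5 were within 2-fold, beside 22.2% lower and 11.5% higher among all genes. Gp6 was listed at 0 in the WT library.

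The widest ratio was that of Itga2, the collagen receptor chain, with 11.8 FPKM in WT LSCs and 0.167 FPKM in STAP-1 KO LSCs. These levels correspond to 609 and 12.05 estimated reads, and the fold of 70.6 has an interval from 40.3 to 138. The log2 ratio of -5.48 was -3.45 at a pseudocount of 1 FPKM, which also moved Itga9 to -2.85, Itgax from -2.69 to -1.53 and Fermt2 from -3.38 to -2.55, all still past the cut-off. Itga9, whose product binds tenascin and osteopontin, had 14.5 and 1.15 FPKM, a log2 ratio of -3.54 that was -2.59 relative to genes of like transcript length. Itgae, the CD103 chain that pairs with the beta 7 chain and binds E-cadherin, had 17.0 and 1.82 FPKM, a fold of 9.35 (7.28 to 12.3). All 3 were over 10 FPKM in WT LSCs and under 2 FPKM in STAP-1 KO LSCs. The E-cadherin gene Cdh1 itself had 5.27 and 1.11 FPKM. The 8 T and NK cell markers found, a lineage that also uses Itgae, summed to 6.01 and 9.44 FPKM, and the lineage gate on CD3e and CD8 would remove such cells.

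The chains that bind fibronectin and vitronectin were lower by less. Itgav, the vitronectin receptor chain, had 10.4 FPKM in WT LSCs and 1.62 FPKM in STAP-1 KO LSCs, a log2 ratio of -2.61 that was -1.66 relative to genes of like transcript length. Itga5, the main fibronectin receptor chain, had 19.5 and 6.41 FPKM, a log2 ratio of -1.59. Itga4, which binds VCAM-1 and fibronectin and keeps progenitors in the marrow, had 20.3 and 8.28 FPKM, a log2 ratio of -1.28 that was -0.28, within 2-fold, relative to genes of like transcript length. All 3 remained above 1 FPKM in the STAP-1 KO library, with 116 to 829 estimated reads.

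Of the leukocyte chains that pair with the beta 2 chain, Itgal, Itgam and Itgax had lower values in STAP-1 KO LSCs, and Itgax was past the cut-off. Itgal, the LFA-1 chain, had 15.3 FPKM in WT LSCs and 11.6 FPKM in STAP-1 KO LSCs, and its fold was 1.32 (1.18 to 1.48). The log2 ratio of Itgal was -0.40, and relative to genes of like transcript length it was 0.14. Itgam, which encodes CD11b, had 1.82 and 1.56 FPKM, a fold of 1.17 with an interval that includes 1 (0.816 to 1.66). CD11b was one of the lineage antigens used to remove cells from the sort, so that the gate itself selects for a low level of Itgam. Itgax, which encodes the dendritic cell antigen CD11c, had 2.97 and 0.375 FPKM, with 85.5 and 15.1 estimated reads. The 12 macrophage and dendritic cell markers summed to 168 and 146 FPKM, all above 0 in both libraries, and of the 7 above the filter 3 were lower, 2 were higher and 2 were within 2-fold.

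Itga6, a laminin receptor chain found on stem cells of several tissues, was the only alpha chain above the filter with a higher value in the STAP-1 KO library. It had 6.61 FPKM in WT LSCs and 7.96 FPKM in STAP-1 KO LSCs, 1.205-fold, and the 95% interval of its log2 ratio from estimated reads ran from 0.02 to 0.53. Its share of all alpha chain FPKM was 2.69% in WT LSCs and 10.8% in STAP-1 KO LSCs, and that of Itgal was 6.24% and 15.7%.

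Of the alpha chains below the filter, Itga7, the laminin receptor chain of muscle, had 1.64 FPKM in WT LSCs and 0.0251 FPKM in STAP-1 KO LSCs, which correspond to 47.0 and 1 estimated reads. Itga1 had 0.0693 and 0.165 FPKM, Itga3 had 0.0861 and 0.123 FPKM, and Itgad had 0.0710 and 0.0763 FPKM. The last 3 had at most 18.6 estimated reads in either library, and a difference was not detectable at this depth. Itga1 lies 20995 bases from Itga2 on chromosome 13, on the same strand, and these neighbours had very different levels in the WT library.

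The beta chains carry the signal across the membrane. Of the 6 beta chains, 5 passed the filter, 4 were lower (80.0%, beside 22.2% of all genes) and 1, Itgb1, was within 2-fold, with a median log2 ratio of -2.35. Their summed level was 683 FPKM in WT LSCs and 183 FPKM in STAP-1 KO LSCs, a 3.74-fold difference.

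The tails of most beta chains hold a short motif, asparagine, proline, any residue and tyrosine or phenylalanine, to which talin binds. Kindlin binds nearer to the end, at a second copy in some chains. The search required the proline codon, so a site without it was not listed. A single window therefore does not show that a chain lacks a kindlin site. The coding sequence around each copy in the last 300 coding bases is shown for the beta chains above the filter because it is the point at which the chains and the linkers described here meet. Each window runs 5′ to 3′ on the coding strand (GENCODE M21, GRCm38), and capitals mark the 12 bases of the motif.
Itgb1 first (chr8:128726184-128732049, plus strand, across 2 exons): acgggtgaaAATCCTATTTACaagagtgcc
Itgb1 second (chr8:128732056-128732085, plus strand, exon 16): actgtggtcAATCCGAAGTATgagggaaaa
Itgb2 first (chr10:77564799-77565201, plus strand, across 2 exons): aacaatgacAACCCCCTCTTCaagagtgct
Itgb2 second (chr10:77565208-77565237, plus strand, exon 16): acggtcatgAACCCCAAGTTTgctgaaagc
Itgb3 (chr11:104665630-104667106, plus strand, across 2 exons): acagcaaacAACCCGCTGTATaaagaggcc
Itgb5 (chr16:33947879-33948683, plus strand, across 2 exons): atggcctcaAACCCCCTGTACagaaagccc
Itgb7 first (chr15:102216241-102216474, minus strand, across 2 exons): caggacaacAATCCTCTCTACaaaagtgcg
Itgb7 second (chr15:102216205-102216234, minus strand, exon 15): accactgtcAACCCCCGCTTCcaagggaca
The motif ended in tyrosine in Itgb1, Itgb3 and Itgb5, in phenylalanine in both copies of Itgb2, and in tyrosine and then phenylalanine in Itgb7. Itgb8 held no copy in its last 300 coding bases. Over the 30 bases of the first window, Itgb7 was identical to Itgb1 at 20 bases and to Itgb2 at 20 bases, and the other pairs shared 14 to 19 bases.

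Itgb7, the beta chain of lymphocytes and of mast cell progenitors, was the most abundant integrin chain of the WT library. It had 319.8 FPKM in WT LSCs and 53.0 FPKM in STAP-1 KO LSCs, a fold of 6.04 (5.70 to 6.42). Itgb2, the beta chain shared by the leukocyte integrins, had 175 and 34.2 FPKM, a fold of 5.11 (4.76 to 5.49). Itgb3, the partner of Itga2b and Itgav, had 27.7 and 3.55 FPKM, a fold of 7.80 (6.74 to 9.11). The log2 ratio of Itgb3, -2.93, was -2.34 relative to genes of like transcript length. The folds of Itgb7, Itgb2 and Itgb3 each rest on 207 or more estimated reads in the STAP-1 KO library. Itgb5, a second partner of Itgav, was low in both libraries, at 3.95 and 1.22 FPKM, a fold of 3.23 (2.22 to 4.87).

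Itgb1, the beta chain with the most alpha partners, had 157 FPKM in WT LSCs and 90.9 FPKM in STAP-1 KO LSCs, a fold of 1.72 (1.65 to 1.81) that stayed within the cut-off. The order of the beta chains therefore differed between the libraries. Itgb7 made up 46.8% of all beta chain FPKM in WT LSCs and 29.0% in STAP-1 KO LSCs, whereas Itgb1 made up 23.0% and 49.7%. Itgb8, the remaining beta chain, had 0.0462 FPKM in WT LSCs and was listed at 0 in STAP-1 KO LSCs.

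**Figure D2:**
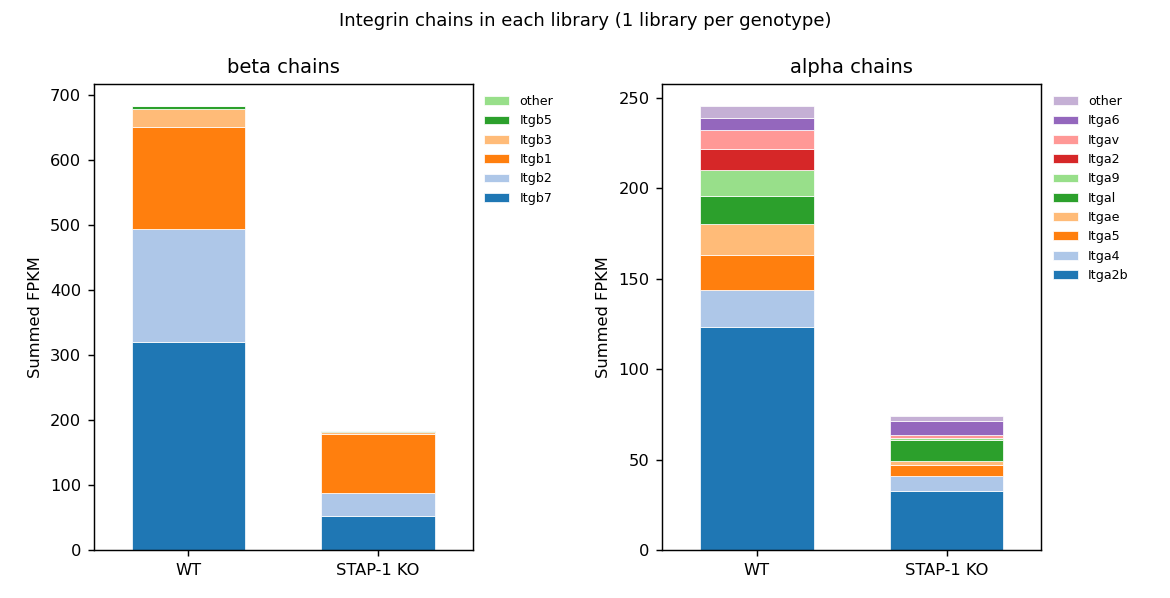
Summed FPKM of the beta chains (left) and of the alpha chains (right) in the WT and the STAP-1 KO library, 1 library per genotype, with each chain as a segment of the bar. The bars stand at 683 and 183 FPKM for the beta chains and at 245 and 73.8 FPKM for the alpha chains, and the Itgb1 segment is the largest beta segment of the STAP-1 KO library.

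Chains reach the cell surface only as pairs, and so each beta chain was set beside the summed level of its alpha partners. For Itgb2, the 4 partners Itgal, Itgam, Itgax and Itgad summed to 20.2 FPKM in WT LSCs and 13.6 FPKM in STAP-1 KO LSCs, and the beta chain stood at 8.66 and 2.51 times that sum. For Itgb7, the partners Itga4 and Itgae summed to 37.3 and 10.1 FPKM, and the beta chain stood at 8.57 and 5.24 times that sum. For Itgb3, the partners Itga2b and Itgav summed to 134 and 34.1 FPKM, and the beta chain stood at 0.207 and 0.104 times that sum. Itgb1 went the other way, at 1.85 times the sum of its 9 partners in WT LSCs and 3.51 times in STAP-1 KO LSCs. Its transcript has 3815 bases, whereas those of the partners Itga2, Itga4, Itga9 and Itgav have 7020 to 9767 bases, and the median log2 ratio of all genes was -0.06 in the length bin of Itgb1 and -0.95 or lower in theirs. The lengths also differed within the other pairs, with 5784 bases for Itgb3 against 3437 for Itga2b, 2683 for Itgb7 against 9767 for Itga4 and 2970 for Itgb2 against 5222 for Itgal. None of these sums was adjusted for length. Itga4 and Itgav each count toward more than one beta chain, and transcript levels do not give the amounts of protein.

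The promoters of the most abundant alpha chain, of the most abundant beta chain of the WT library and of the linker with the higher value in the STAP-1 KO library are shown, as upstream sequence of genes that were well expressed in both libraries and did not share a direction. The 250 bases upstream of the RefSeq start (GRCm38.p6) are given 5′ to 3′ on the strand of the gene, with capitals for AGGAAG or its reverse complement CTTCCT, an ETS-type motif.
Itga2b (chr11:102469884-102470133, minus strand): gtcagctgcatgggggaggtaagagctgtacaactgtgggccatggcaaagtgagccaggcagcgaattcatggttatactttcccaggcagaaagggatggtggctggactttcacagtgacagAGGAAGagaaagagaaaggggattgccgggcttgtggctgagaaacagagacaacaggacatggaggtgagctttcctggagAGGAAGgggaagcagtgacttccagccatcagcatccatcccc
Itgb7 (chr15:102231936-102232185, minus strand): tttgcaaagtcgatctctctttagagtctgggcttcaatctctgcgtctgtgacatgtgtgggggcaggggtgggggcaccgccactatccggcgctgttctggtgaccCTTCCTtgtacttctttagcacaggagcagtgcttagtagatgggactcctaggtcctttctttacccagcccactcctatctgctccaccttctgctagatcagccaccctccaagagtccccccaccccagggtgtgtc
Parvg (chr15:84324470-84324719, plus strand): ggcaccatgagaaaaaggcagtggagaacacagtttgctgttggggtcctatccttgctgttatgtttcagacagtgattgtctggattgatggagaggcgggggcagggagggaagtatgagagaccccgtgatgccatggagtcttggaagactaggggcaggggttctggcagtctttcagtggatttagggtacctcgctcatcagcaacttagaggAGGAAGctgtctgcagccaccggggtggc
In GENCODE M21 each of these genes has a transcript that starts upstream of the RefSeq start. The windows held 2 copies in Itga2b, 1 copy in Itgb7 and 1 copy in Parvg. The window of a further RefSeq start of Parvg (chr15:84325869-84326118) held 0 copies. Of the 28 members with a RefSeq promoter, 10 held the motif on either strand (35.7%), beside 32.3% of the promoters of 27025 genes. Among the genes called lower it was in 3 of 16, and among those within 2-fold in 4 of 7. The GATA motif AGATAA or TTATCT was in 2 of the 28 members, Itgax and Lims1 (7.14%), beside 11.4% of all genes. A match is a description of these letters and not a bound site.

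The cytoskeletal linkers join the receptor to actin and pass signals on. Of the 19 linkers, 15 passed the filter, 9 were lower (60.0%) and 6 were within 2-fold, with a median log2 ratio of -1.15. The share lower was 72.7% of the 11 alpha chains, 80.0% of the 5 beta chains and 22.2% of all genes. Relative to genes of like transcript length it was 60.0% of linkers, 63.6% of alpha chains and 80.0% of beta chains, beside 18.4% of all genes. The summed level of the linkers was 1281 FPKM in WT LSCs and 749 FPKM in STAP-1 KO LSCs, a 1.71-fold difference. By role, 3 of 4 tail-binding linkers, 1 of 4 adaptors, 2 of 3 kinases and 3 of 4 actin-binding linkers that passed the filter were lower. No test of the difference between chains and linkers can be made with 1 library per genotype.

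Among the tail-binding linkers, Tln1, the main talin of blood cells, had 97.3 FPKM in WT LSCs and 8.38 FPKM in STAP-1 KO LSCs, a fold of 11.6 (10.7 to 12.6) over 5972 and 718 estimated reads. The log2 ratio of Tln1, -3.52, was -2.52 relative to genes of like transcript length. The paralog Tln2 had 0.0559 and 0.0320 FPKM, or about 5 and 4 estimated reads, so that nearly all talin transcript was Tln1. Vcl, the talin-binding vinculin, had 54.2 and 8.90 FPKM, a fold of 6.09 (5.50 to 6.74). The kindlins differed from each other. Fermt3, the kindlin of blood cells, had 307 and 195 FPKM, a fold of 1.58 (1.52 to 1.63), whereas Fermt2, the kindlin of adherent tissues, had 9.80 and 0.850 FPKM, a fold of 11.5 (7.86 to 18.2). Fermt3 was thus 31.3 times the level of Fermt2 in WT LSCs and 229 times in STAP-1 KO LSCs. The 8 stromal and endothelial markers summed to 13.8 FPKM in WT LSCs and 6.50 FPKM in STAP-1 KO LSCs, with Col3a1 at 0 in the former and Lepr and Cdh5 at 0 in the latter. Of the 3 above the filter 2 were lower and 1, Cxcl12, was higher, at 0.194 and 2.68 FPKM. The sort on GFP+ CD45.2+ cells would remove stromal and endothelial cells of the host, and the part of these markers in the level of Fermt2 was not tested.

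Of the 4 roles of linkers, the adaptors above the filter had the median log2 ratio nearest to 0, at -0.38. Of the 7 adaptors, 3 (Bcar1, Parva and Parvb) were below the filter and not in this median, and each had a lower value in the STAP-1 KO library. Zyx, the zyxin that senses tension on actin filaments, had 165 FPKM in WT LSCs and 80.1 FPKM in STAP-1 KO LSCs, and its fold of 2.05 (1.95 to 2.16) lay at the cut-off. Pxn, which encodes paxillin, had 23.5 and 15.98 FPKM, and Lims1, which encodes PINCH, had 44.7 and 39.0 FPKM. Both were within 2-fold, with log2 ratios of -0.56 and -0.20. Bcar1, which encodes the docking protein p130Cas, had 1.42 FPKM in the WT library, or 31.3 estimated reads, and was listed at 0 in the STAP-1 KO library.

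The parvins, which bind ILK and actin, included the linker with the higher value in the STAP-1 KO library. Parvg, the parvin of blood cells, had 97.1 FPKM in WT LSCs and 151 FPKM in STAP-1 KO LSCs, a log2 ratio of 0.64 or 1.56-fold, within the cut-off. Parvb, which lies 8337 bases upstream on the same strand of chromosome 15, had 0.763 and 0.273 FPKM, below the filter. Parva, the third parvin, had 0.0629 FPKM in WT LSCs and was listed at 0 in STAP-1 KO LSCs. Parvg therefore supplied nearly all parvin transcript in both libraries.

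Both focal adhesion tyrosine kinases were lower. Ptk2, which encodes FAK, had 5.13 FPKM in WT LSCs and 1.36 FPKM in STAP-1 KO LSCs, a fold of 3.76 (2.80 to 5.08). Ptk2b, which encodes the related kinase Pyk2 of blood cells, had 40.8 and 12.6 FPKM, a fold of 3.25 (2.93 to 3.62). Ptk2b was 7.96 times the level of Ptk2 in WT LSCs and 9.22 times in STAP-1 KO LSCs. Ilk, the pseudokinase that holds PINCH and parvin together, had 148 and 99.5 FPKM, a log2 ratio of -0.57. Ilk, Lims1 and Parvg, whose products form 1 complex, were thus all within 2-fold but did not share a direction, with log2 ratios of -0.57, -0.20 and 0.64.

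Among the actin-binding linkers, Flna, the filamin that crosslinks actin and binds beta chain tails, had 82.0 FPKM in WT LSCs and 18.2 FPKM in STAP-1 KO LSCs, a fold of 4.51 (4.26 to 4.78). Vasp, which promotes filament growth, had 79.3 and 30.8 FPKM, a fold of 2.58 (2.34 to 2.84). The alpha-actinins both had lower values. Actn4, the main form in these cells, had 122 and 85.5 FPKM, within 2-fold, and Actn1 had 2.83 and 1.22 FPKM, a fold of 2.33 (1.59 to 3.45). The counting intervals of Actn1 and Zyx reached across the cut-off, and those of the other 19 genes called lower did not. Zyx was within 2-fold after scaling by the upper quartile or the sum of FPKM, and Actn1 at a pseudocount of 1 FPKM. The log2 ratio of Flna, one of the longest transcripts, was -1.17 relative to genes of like length, and Flna, Zyx and Actn1 were within 2-fold after adjustment for length and GC content.

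The ratio of these libraries varied with transcript length over all genes, and the 31 members had transcripts of 2215 to 9767 bases, with a median of 4034. Over 10864 genes with a known length the rank correlation (Spearman's rho) of the log2 ratio with the longest annotated transcript was -0.37, and over the 31 members it was -0.31, points that share the same pair of libraries. Over the members it was 0.021 when the median length of the annotated transcripts took the place of the longest. Of the members under 3000 bases, 3 of 6 were lower, beside 14.2% of all genes of that length. Of those of 3000 to 5000 bases, 10 of 16 were lower, beside 21.5%, and of those over 5000 bases, 8 of 9 were lower, beside 41.5%. The medians of the members in these classes were -1.01, -1.37 and -2.61, beside 0.34, -0.14 and -0.79 for all genes. The members' share was above that of all genes in each class.

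**Figure D3:**
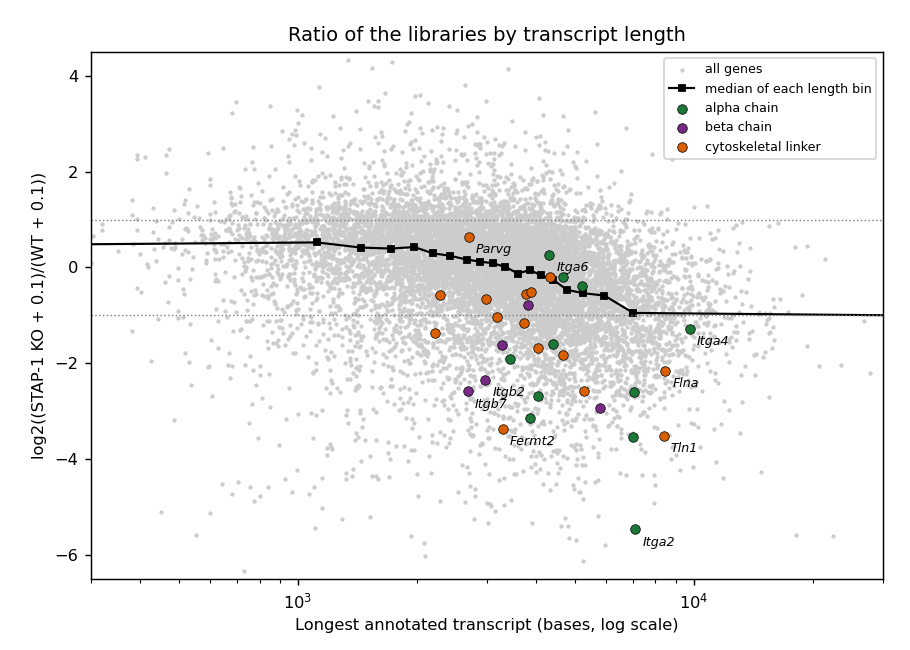
Log2 ratio of the libraries against the longest annotated transcript (log scale) for all genes above the filter (grey), with the median of each of 20 length bins (black squares) and the members in colour. Dotted lines mark the 2-fold cut-off, 83 of the 10864 genes fall outside the axes, and most members lie below the line of bin medians.

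The log2 ratio of each member was then taken relative to the median of the genes in its length bin. On this length-adjusted scale 20 members were at -1 or less and 0 at 1 or more, beside 18.4% and 10.7% of all genes, and the median of the members was -1.37. With a further adjustment for GC content 17 members were at -1 or less, beside 17.8% of all genes, and Itga4, Zyx, Actn1 and Flna were not. The length-adjusted medians were -1.66 for alpha chains, -2.34 for beta chains and -1.13 for linkers. Itga4, with the longest transcript of the members above the filter (9767 bases), moved from -1.28 to -0.28 and was no longer past the cut-off, with 39.2% of the 543 genes in its bin at a lower ratio. Tln1 moved from -3.52 to -2.52, with 2.76% of its bin below it, and Flna from -2.17 to -1.17, with 13.8% below it. Itga2 moved from -5.48 to -4.52 and had the lowest ratio of its bin.

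Members with short transcripts moved the other way. Itgb7, at 2683 bases, went from -2.59 to -2.76, with 3.87% of its bin below it, and Itgb2, at 2970 bases, from -2.35 to -2.47. Itga2b at 3437 bases went from -1.92 to -1.93, and Fermt2 at 3293 bases, at -3.39, became the second lowest of the members above the filter. The adjusted ratio was above 0 for Itga6, Parvg, Itgam, Itgal and Lims1, at 0.06 to 0.53.

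**Figure D4:**
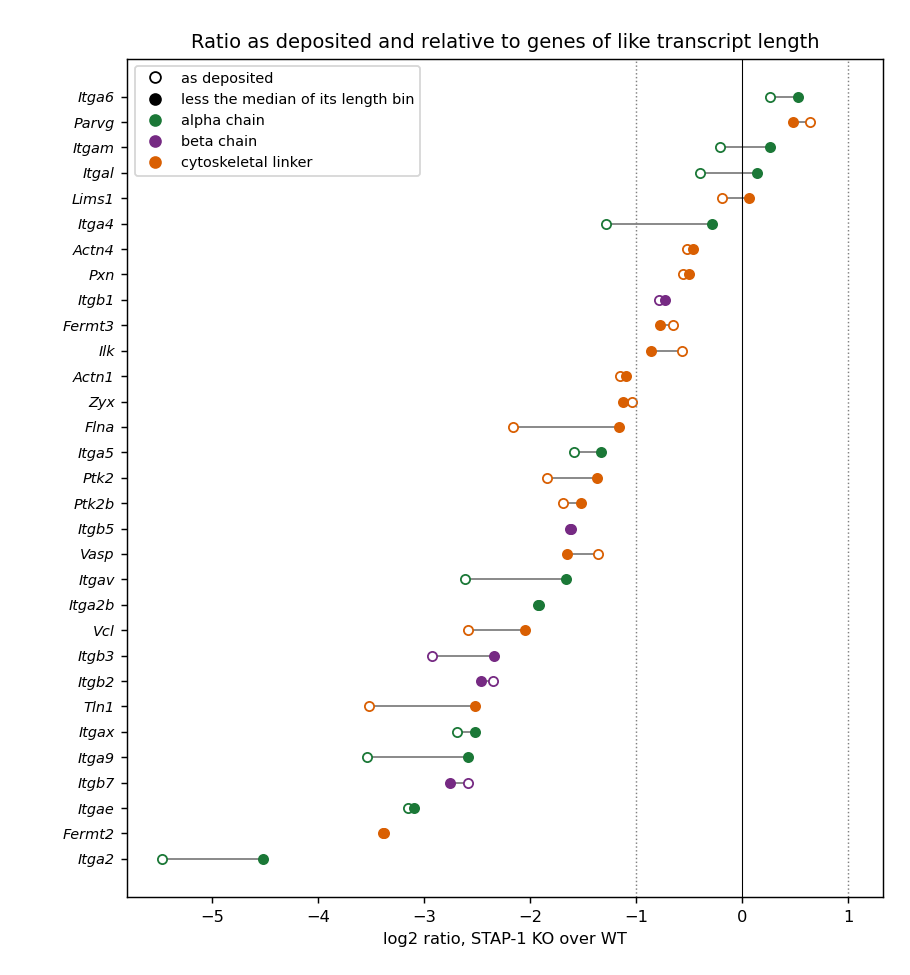
Log2 ratio of the 31 members above the filter as deposited (open circles) and less the median of genes of like transcript length (filled circles), for alpha chains (green), beta chains (purple) and linkers (orange). Long genes such as Itga4 (-1.28 to -0.28) and Tln1 (-3.52 to -2.52) move to the right, whereas Itgb7 (-2.59 to -2.76) moves slightly to the left.

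The other genes of the pathway, 116 genes in 6 lists also chosen with earlier results of these data known, were examined by the same rule. Of these, 97 passed the filter, 39 were lower (40.2%, beside 22.2% of all genes) and 5 were higher (beside 11.5% of all genes). The other 53 were within 2-fold, and the median log2 ratio was -0.71, beside -0.04 for all genes. The counts of each list below stand beside the same shares of all genes. The length-adjusted median was -0.55 over the 97 genes. By list it was -0.78 for the inside-out genes, -0.39 for adaptors and kinases, -0.53 for actin and actomyosin, -0.26 for ligands and -1.03 for tetraspanins. Of the integrin chains outside the members, Itgb4, the beta chain of epithelial hemidesmosomes, passed the filter, with 4.78 and 0.417 FPKM.

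Of the 14 genes that switch integrins on or off from inside the cell, 6 were lower, 2 were higher and 6 were within 2-fold, with a median of -0.69. Rasgrp2, the exchange factor that activates Rap1 in blood cells, had 5.24 FPKM in WT LSCs and 25.6 FPKM in STAP-1 KO LSCs, and the adaptor Skap2 had 42.5 and 88.5 FPKM. Pip5k1c, the lipid kinase that talin recruits, had 48.7 and 12.99 FPKM, and Rapgef1, another Rap1 exchange factor, had 11.7 and 3.28 FPKM, a log2 ratio of -1.80 that was -0.85, within 2-fold, relative to genes of like transcript length. Genes upstream of talin thus lay on both sides, whereas Tln1 itself was lower.

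Of 34 further adhesion adaptors and kinases above the filter, 14 were lower, 3 were higher and 17 were within 2-fold, with a median of -0.78. Tns1, the actin-binding tensin, had 20.5 and 1.04 FPKM, and Enah, a relative of Vasp, had 34.0 and 3.18 FPKM. Relative to genes of like transcript length their log2 ratios of -4.18 and -3.38 were -3.18 and -2.38. Trip6, a relative of Zyx, went the other way with 3.09 and 17.2 FPKM, as did the vinculin-binding Sorbs3 with 1.28 and 7.13 FPKM. Of the 26 actin and actomyosin genes 9 were lower, 0 were higher and 17 were within 2-fold, with a median of -0.46. The largest differences among these were those of the myosin heavy chain gene Myh9 (41.2 and 5.001 FPKM) and of the calpain gene Capn2 (60.8 and 9.59 FPKM), whose product cleaves talin. Relative to genes of like transcript length the log2 ratios of Myh9 and Capn2 were -2.07 and -2.66, so this ranking holds for the unadjusted ratios only.

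Of 10 ligands and counter-receptors above the filter, 4 were lower and 6 were within 2-fold, with a median of -0.70. Cdh1 was one of them, and Tgfb1, whose latent form is bound by the alpha v integrins, had 177 FPKM in WT LSCs and 75.6 FPKM in STAP-1 KO LSCs. Of the 12 tetraspanins and associated membrane proteins, which hold integrins in membrane domains, 5 were lower and 7 were within 2-fold, with a median of -0.74. Cd53 had 764 and 174 FPKM, and Cd63 had 819.7 and 232 FPKM.

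**Figure D5:**
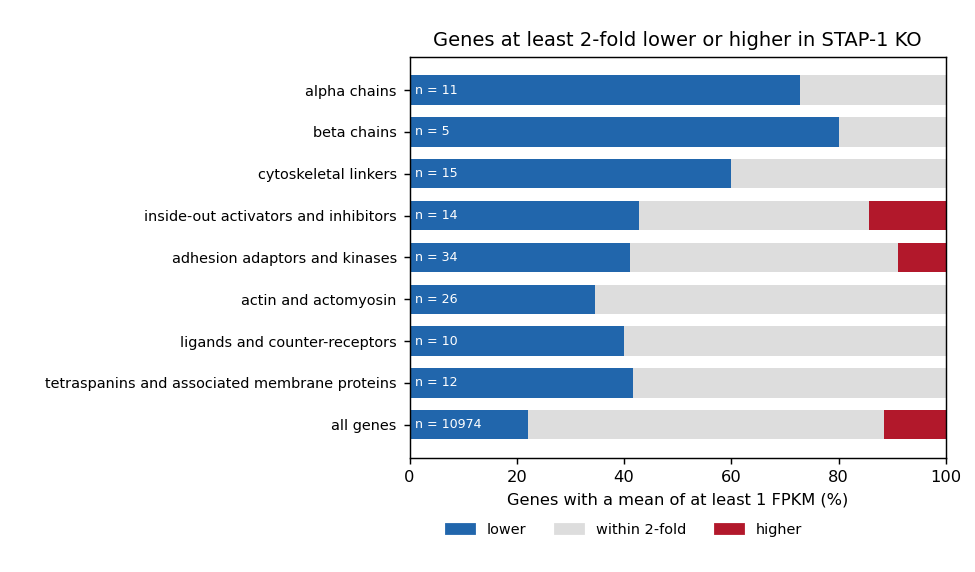
Share of genes above the filter (mean of 1 FPKM or more) that were at least 2-fold lower (blue), within 2-fold (grey) or at least 2-fold higher (red) in the STAP-1 KO library, with the number of genes in each bar. The 3 classes of members stand at 60.0% to 80.0% lower, and the 5 other pathway lists shown lie between these and the 22.2% of all genes.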

How the data were processed

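RNA was measured in 1 WT and 1 STAP-1 KO library of CML LSCs. The authors amplified cDNA with a low-input SMART-Seq v4 kit, made Nextera XT libraries and sequenced 75-base single reads. According to the submitters' processing notes and the methods, reads were mapped to mm10 with TopHat2 2.0.13 and Bowtie2 2.2.3, and the deposited FPKM values came from Cuffnorm (Cufflinks 2.2.1). The methods and the processing notes differ in the SAMtools version (0.1.19 in the notes), and the methods and labels differ in the RNA extraction kit. The annotation and the scaling of the libraries are not given in the sources used here.

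Ratios at a pseudocount of 0.1 FPKM, a minimum mean of 1 FPKM and a 2-fold cut-off were computed in Python 3.11.15 (pandas 2.3.3, numpy 2.4.6, scipy 1.17.1), and figures were drawn with matplotlib 3.10.9. With 1 library per genotype no test was possible. Symbols were matched to GENCODE M21 (20911 as written, 1900 by an older symbol, 473 not matched), which gave the longest transcript, and the median log2 ratio of 20 length bins was subtracted for the length-adjusted scale. The files state no read numbers. Effective depths were taken from the steps of values below 0.3 FPKM, of which 45.9% (246 values, WT) and 46.6% (313 values, STAP-1 KO) lay within 0.01 of a whole read. Estimated reads therefore remain approximate, and the effective depths may include a scaling by Cuffnorm. Simulated data were used to test the ratio and length steps.

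The members and lists were chosen with earlier results of these data known. All 40 members are named, and of each pathway list up to 2 genes that were higher and 2 that were lower, ranked by log2 ratio with 1 FPKM added to both values, among those past the cut-off. Beta chain motif windows were read from GENCODE M21 coding sequences and promoters from RefSeq, which held 28 of the members. Alternatives changed the pseudocount, the scaling, the filter, the cut-off, and the adjustment for length and GC content. A filter of at least 10 estimated reads in 1 library was added after seeing the data.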

Additional observations from a re-analysis of the deposited data

How the results depend on the processing

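No paired analysis was possible because each genotype had 1 library. The count of members at least 2-fold lower, 21 of 31 as reported, was 12 of 31 at a 4-fold cut-off, beside 928 of 10974 for all genes. Under the other 11 alternatives it ranged from 17 to 24, over differing sets of kept genes. It was 17 of 26 at a minimum mean of 5 FPKM, beside 1557 of 8336 for all genes. After adjustment for length and GC content it was 17 of 31, beside 17.8% of all genes. It was 24 of 40 with no filter, beside 3445 of 15038, and 24 of 35 at 10 estimated reads, beside 2876 of 12150. The count of members at least 2-fold higher was 0 under all of these except a 1.5-fold cut-off, at which it was 1 (Parvg), beside 2780 of 10974. The median log2 ratio over all members ranged from -1.31 to -1.64, and the length-adjusted median, -1.37 as reported, from -1.23 to -1.56. The calls of Itga4 (transcript length), of Zyx (scaling by the upper quartile or by the sum of FPKM), of Actn1 (pseudocount of 1 FPKM) and of Itga4, Zyx, Actn1 and Flna (length and GC content) were lost. Scaling by the sum of FPKM moved the median of all genes from -0.04 to 0.06. The rank correlation of the members' ratio with length was 0.021 with the median in place of the longest transcript. The cause was not tested. Differences between genotypes, sorts and library preparations cannot be told apart with 1 library each, and genes with few estimated reads allow no reading of a difference.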
